A study of Homo sapiens with 8 samples.

Results

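The aryl hydrocarbon receptor pathway was examined in H1299 cells through 7 genes: AHR, its partner ARNT, its repressors AHRR and TIPARP, and the xenobiotic enzymes CYP1A1, CYP1B1 and ALDH3A1. Every probe set that the platform annotation assigned to exactly 1 symbol, equal to one of these 7, was taken, which gave 20 probe sets of 49293 on the array and 7 of 18132 genes. All 8 samples came from H1299, an established line of human lung cancer of the non-small cell type. In the first set, 3 arrays of cells given short hairpin RNA against USF1 (USF1 knockdown) were set against 3 arrays of their controls. In the second set, 1 array of cells given short hairpin RNA against UGT1A3 (UGT1A3 knockdown) was set against 1 control array. The labels do not say what the control cells were given, how many hairpins were used or whether the replicates were separate cultures, so the p-values rest on a spread between arrays that could be technical. All results concern 1 cell line.

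The receptor AHR is a basic helix-loop-helix PAS factor that waits in the cytoplasm with HSP90 and co-chaperones. Polycyclic aromatic hydrocarbons of tobacco smoke, dioxins and tryptophan metabolites bind it, after which it enters the nucleus, pairs with ARNT and binds DNA at sites with the core GCGTG. CYP1A1 and CYP1B1 are its best known target genes, and in the lung their products oxidise inhaled aromatic hydrocarbons. AHRR and TIPARP are also induced by the receptor and act back on it, AHRR by competing for ARNT and TIPARP by ADP-ribosylation. USF1 belongs to the leucine zipper branch of the same helix-loop-helix class and binds the E-box CACGTG, and UGT1A3 conjugates glucuronic acid to lipophilic compounds.

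Promoter windows of RefSeq (build GRCh38.p14), from 250 bases before to 50 after a start site, were found for 5 of the 7 genes, with 8 windows in all. They were searched on both strands for CACGTG, the hexamer that USF1 binds, and for GCGTG, read as CACGC on the other strand. The windows below are shown because they belong to the receptor and to the members with the largest changes for which a window was found. Capitals mark the matches.
CYP1A1 promoter, chr15:74725479-74725778, minus strand: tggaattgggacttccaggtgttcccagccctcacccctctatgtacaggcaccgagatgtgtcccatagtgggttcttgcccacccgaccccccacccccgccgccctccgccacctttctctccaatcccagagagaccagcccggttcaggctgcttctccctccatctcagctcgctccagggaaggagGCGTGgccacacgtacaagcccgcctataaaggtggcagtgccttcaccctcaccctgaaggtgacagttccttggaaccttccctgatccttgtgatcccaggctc
TIPARP promoter, chr3:156674340-156674639, plus strand: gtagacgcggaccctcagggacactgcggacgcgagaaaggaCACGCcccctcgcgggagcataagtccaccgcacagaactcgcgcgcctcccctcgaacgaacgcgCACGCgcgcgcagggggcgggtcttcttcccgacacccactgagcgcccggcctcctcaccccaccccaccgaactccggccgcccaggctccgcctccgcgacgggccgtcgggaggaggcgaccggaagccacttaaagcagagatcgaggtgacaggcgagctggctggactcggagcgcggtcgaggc
AHR promoter, chr7:17298402-17298701, plus strand: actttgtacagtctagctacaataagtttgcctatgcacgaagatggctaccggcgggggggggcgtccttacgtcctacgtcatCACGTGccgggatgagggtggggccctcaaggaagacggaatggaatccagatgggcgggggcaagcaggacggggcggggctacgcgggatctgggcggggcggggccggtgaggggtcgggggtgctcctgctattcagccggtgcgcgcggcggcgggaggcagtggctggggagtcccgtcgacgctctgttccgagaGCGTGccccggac
The CYP1A1 window held 1 GCGTG, beginning 57 bases before the start site, and no CACGTG. The first of 3 TIPARP windows held 2 matches, 208 and 142 bases before the start site, and the other two windows held none. The AHR window held the only CACGTG of the 8, at 165 bases before the start site, and 1 GCGTG at 37 bases after it. The 2 AHRR windows held 3 GCGTG matches and the ARNT window none, and no CACGTG overlapped a GCGTG. Of all 35116 promoter windows, 7.26% held CACGTG and 36.5% held GCGTG on either strand. A match here is a description of letters in a short window, not of a bound site.

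Values are log2 intensities, in which 1 unit is a doubling, and a change is knockdown minus control. Array medians lay between 6.53 and 6.55 on the USF1 arrays, and were 5.63 on the UGT1A3 knockdown array and 5.59 on its control, so each knockdown was compared only within its own set. Pearson's correlation between arrays was at least 0.995 within a set. USF1 itself read 6.06, 5.88 and 6.13 in USF1 knockdown and 6.31, 6.55 and 6.42 in USF1 control, a fall to 75.6% of the control level (limma adjusted p = 0.00818 over genes). No probe set measured UGT1A3 alone, and the 9 it shares with other UGT1A genes were all dim and differed by -0.45 to 0.06 in the UGT1A3 pair. The keratin genes KRT8 and KRT18 and the mesenchymal marker VIM were bright in all arrays, whereas the epithelial genes EPCAM, CDH1 and KRT19 were dim. Among markers of other cells, PTPRC of leukocytes, CDH5 of endothelium, DCN of fibroblasts and ALB of hepatocytes were dim in both sets. A probe set was called dim where its mean fell short of the 40th percentile over all probe sets, which was 5.63 for the USF1 set and 4.76 for the UGT1A3 set. None of CD68, PECAM1, VWF and PDGFRB, the markers of leukocytes, endothelium and fibroblasts that were bright enough to be tested, passed after USF1 knockdown. Neither did NKX2-1, SFTPC, AGER and FOXJ1, the markers of lung epithelium that were tested, nor KRT18 and VIM. KRT8 rose by 0.25 after USF1 knockdown (limma adjusted p = 0.00197 over genes).

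CYP1A1 and CYP1B1 rose after USF1 knockdown, while the receptor, its partner and its repressor AHRR did not pass the test. CYP1A1 was 1.79-fold and CYP1B1 1.60-fold of the control level, each with all 3 knockdown arrays above all 3 controls. In bulk RNA, more cells that express a gene and more of its RNA per cell cannot be told apart. In the fit over genes, with 1 probe set for each gene, 2 of the 6 member genes above the dim limit passed an adjusted p of 0.05, both upward, where 40.7% of all 11448 tested genes passed in either direction, 22.0% upward and 18.7% downward. The share over all genes moved with the dim limit: with no limit 2 of 7 members passed where 20.1% of genes did. With the limit at the 60th percentile 2 of 4 passed where 55.0% of genes did. These were CYP1B1 (limma adjusted p = 4.36e-06) and TIPARP (limma adjusted p = 0.0243), since CYP1A1 was then too dim to be tested. With the mean of a gene's probe sets 4 of 5 members passed, where 44.2% of genes did. In the main fit CYP1A1 and CYP1B1 also rose by at least 1.5-fold, as 0.507% of tested genes did. On 4 of the 6 member genes the knockdown arrays lay wholly above the controls, as on 29.0% of tested genes. In the fit over all probe sets, 7 of the 20 member probe sets passed, all upward. Of all probe sets, 16.3% passed in either direction and 8.60% upward. Of the 7 member probe sets that passed, 5 rose by at least 1.5-fold, where 0.290% of all probe sets did. These shares are not like for like, since 17 of the 20 member probe sets lay above the dim limit and the background includes dim ones. They do not show whether members passed more often than probe sets of like brightness. With the dim limit applied, 7 of 17 member probe sets passed. The matching share of all probe sets is not given, so this count has no background to be read against. In the fit over genes at that limit, 40.7% of all tested genes passed. The median change over the 20 member probe sets was 0.15, and over all probe sets 0.01. The 7 were both probe sets of CYP1A1, 4 of the 5 of CYP1B1 and 1 of the 2 of TIPARP. The knockdown arrays lay wholly above the controls on 11 of the 20, where 19.1% of all probe sets did, and wholly below them on 1, where 16.5% did. Both background shares include dim probe sets too, so the same caution holds.

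**Figure D1:**
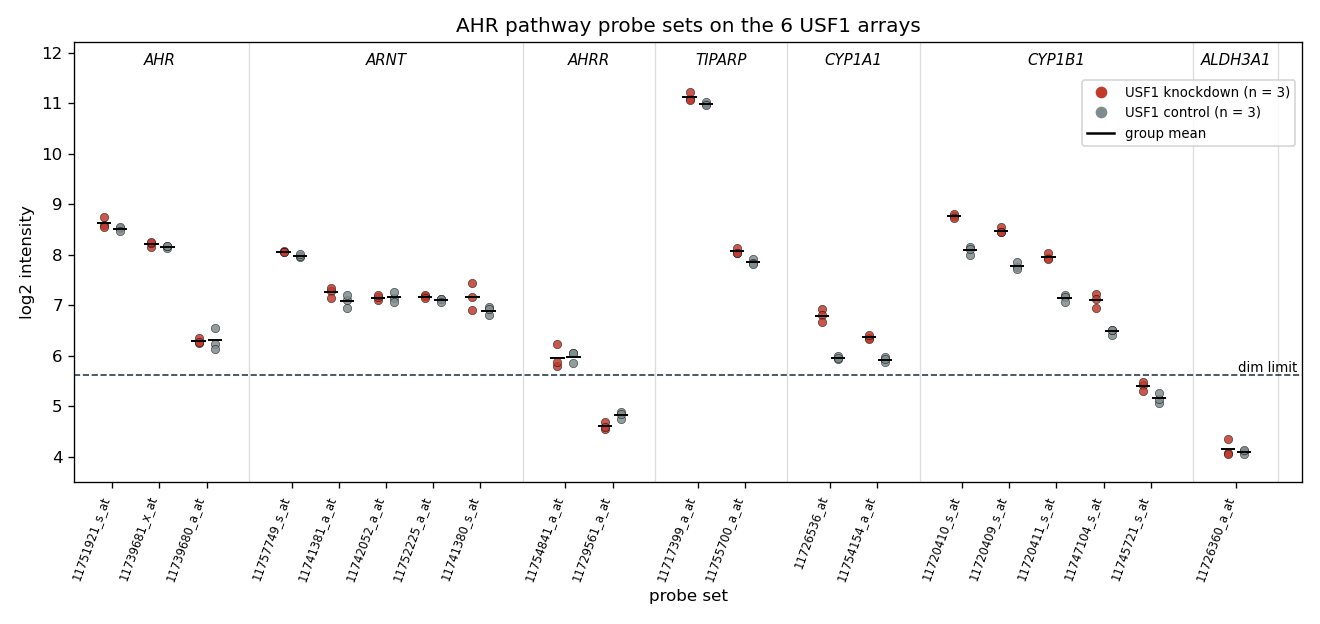
Log2 intensity of the 20 probe sets of the 7 genes on the 6 USF1 arrays, with knockdown arrays in red to the left of controls in grey, group means as bars and the dim limit of 5.63 as a dashed line. The groups stand apart on both probe sets of CYP1A1 and all 5 of CYP1B1, and overlap on all 3 of AHR.

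CYP1A1 is the cytochrome P450 that oxidises aromatic hydrocarbons and is the usual readout of AHR activity. Its brighter probe set, 11726536_at, read 6.92, 6.81 and 6.66 in USF1 knockdown and 5.93, 6.00 and 5.96 in USF1 control. The controls lay close together, and the lowest knockdown array lay well above the highest of them. The change was 0.84 (SE 0.07, n = 3 against 3, 95% interval 0.68 to 0.99, limma adjusted p = 2.11e-04 over genes), the 11th largest rise among 11448 tested genes. The other probe set, 11754154_a_at, read 6.35, 6.34 and 6.42 in USF1 knockdown and 5.87, 5.97 and 5.94 in USF1 control. This set also separated the groups, with a smaller change of 0.44 (SE 0.05, limma adjusted p = 0.00246 over probe sets). The distance between the brighter and the dimmer probe set was 0.58, 0.47 and 0.24 in USF1 knockdown and 0.06, 0.03 and 0.01 in USF1 control. The 2 probe sets thus gave changes that differed by 0.39, with a two-sided exact permutation p of 0.100, the smallest that 3 against 3 arrays allow. With the mean of both probe sets the rise of CYP1A1 was 0.64.

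CYP1B1, a related P450 that acts on hydrocarbons and oestrogens and is made mainly outside the liver, was brighter than the dim limit on 4 of its 5 probe sets. The brightest, 11720410_s_at, read 8.77, 8.81 and 8.72 in USF1 knockdown and 8.0, 8.15 and 8.12 in USF1 control. It gave a rise of 0.68 (SE 0.05, n = 3 against 3, 95% interval 0.57 to 0.79, limma adjusted p = 1.37e-04 over genes), the 31st largest. The probe set with the largest change, 11720411_s_at, read 7.93, 8.03 and 7.91 in USF1 knockdown and 7.21, 7.16 and 7.07 in USF1 control, and rose by 0.81 (limma adjusted p = 7.88e-04 over probe sets). The arrays of each group lay close together, and the groups were far apart on both. The probe sets 11720409_s_at and 11747104_s_at rose by 0.70 and 0.61. The fifth, 11745721_s_at, lay under the dim limit at 5.42, 5.31 and 5.49 in USF1 knockdown and 5.07, 5.15 and 5.26 in USF1 control. Its groups did not overlap, its change was 0.25 (SE 0.07) and its limma adjusted p was 0.0565 over probe sets. The changes of the brightest and the dimmest probe set differed by 0.43 (two-sided exact permutation p = 0.100, the smallest possible). With TIPARP, 3 genes were compared in this way, and the p adjusted over the 3 comparisons was 0.100 for each. All 3 stood at the smallest possible value, TIPARP with a difference of only -0.08. With 3 against 3 arrays this test therefore cannot pass 0.05, and it does not decide whether the probe sets of a gene disagree.

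TIPARP, also called PARP7, is a mono-ADP-ribosyltransferase that is induced by AHR and lowers its activity. Its brighter probe set, 11717399_a_at, read 11.08, 11.21 and 11.07 in USF1 knockdown and 10.99, 11.02 and 10.96 in USF1 control. The knockdown arrays lay above the controls by little, with a change of 0.13 (SE 0.04, 95% interval 0.02 to 0.23, limma adjusted p = 0.0554 over genes). The dimmer one, 11755700_a_at, read 8.03, 8.14 and 8.03 in USF1 knockdown and 7.91, 7.84 and 7.82 in USF1 control. It rose by 0.21 (SE 0.05, limma adjusted p = 0.0321 over probe sets). These values lay near the threshold: the call on the dimmer probe set was lost on leaving out any 1 of the 6 arrays (adjusted p = 0.0545 to 0.109), and with the mean of both probe sets TIPARP rose by 0.17 (adjusted p = 0.012).

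AHR, the receptor, did not pass on any of its 3 probe sets. The brightest, 11751921_s_at, read 8.58, 8.74 and 8.54 in USF1 knockdown and 8.53, 8.54 and 8.47 in USF1 control. The groups overlapped, and the change was 0.11 (SE 0.06, 95% interval -0.03 to 0.24, limma adjusted p = 0.19 over genes). The interval thus leaves out a rise as large as that of CYP1A1 or CYP1B1. The other two AHR probe sets differed by 0.05 and -0.01, and the one read 8.15 to 8.25 in USF1 knockdown and 8.14 to 8.17 in USF1 control.

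ARNT, which pairs with AHR and with hypoxia-inducible factors, was measured by 5 probe sets with changes of 0.00 to 0.27, of which none passed. Its brightest, 11757749_s_at, read 8.08, 8.05 and 8.05 in USF1 knockdown and 7.95, 7.98 and 8.02 in USF1 control. The groups did not overlap but lay close (change 0.08, SE 0.03, limma adjusted p = 0.0962 over genes). The largest ARNT change, 0.27 on 11741380_s_at, came with a wide spread, at 7.16, 7.45 and 6.90 in USF1 knockdown and 6.80, 6.96 and 6.93 in USF1 control (adjusted p = 0.243 over probe sets). With the mean of all 5 probe sets ARNT rose by 0.12 (adjusted p = 0.0309).

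AHRR, the repressor that resembles AHR but does not bind its ligands, had 1 probe set above the dim limit. That set, 11754841_a_at, read 5.79, 5.87 and 6.23 in USF1 knockdown and 6.05, 5.85 and 6.06 in USF1 control, a difference of -0.03 (95% interval -0.31 to 0.26, limma adjusted p = 0.888 over genes). The groups overlapped, and the sign turned without USF1 knockdown 1 (0.06) or 2 (0.02) and without USF1 control 1 or 3 (0.01 each). The dim probe set 11729561_a_at read 4.69, 4.56 and 4.60 in USF1 knockdown and 4.75, 4.88 and 4.85 in USF1 control. It was the 1 member probe set whose knockdown arrays all lay below the controls (-0.21, SE 0.06, limma adjusted p = 0.0536 over probe sets).

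ALDH3A1, an aldehyde dehydrogenase that AHR induces in some tissues, lay under the dim limit on every array. Its 1 probe set read 4.08, 4.06 and 4.35 in USF1 knockdown and 4.11, 4.06 and 4.14 in USF1 control. It was left out of the fit over genes, and in the fit over probe sets it differed by 0.06 (95% interval -0.14 to 0.26).

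**Figure D2:**
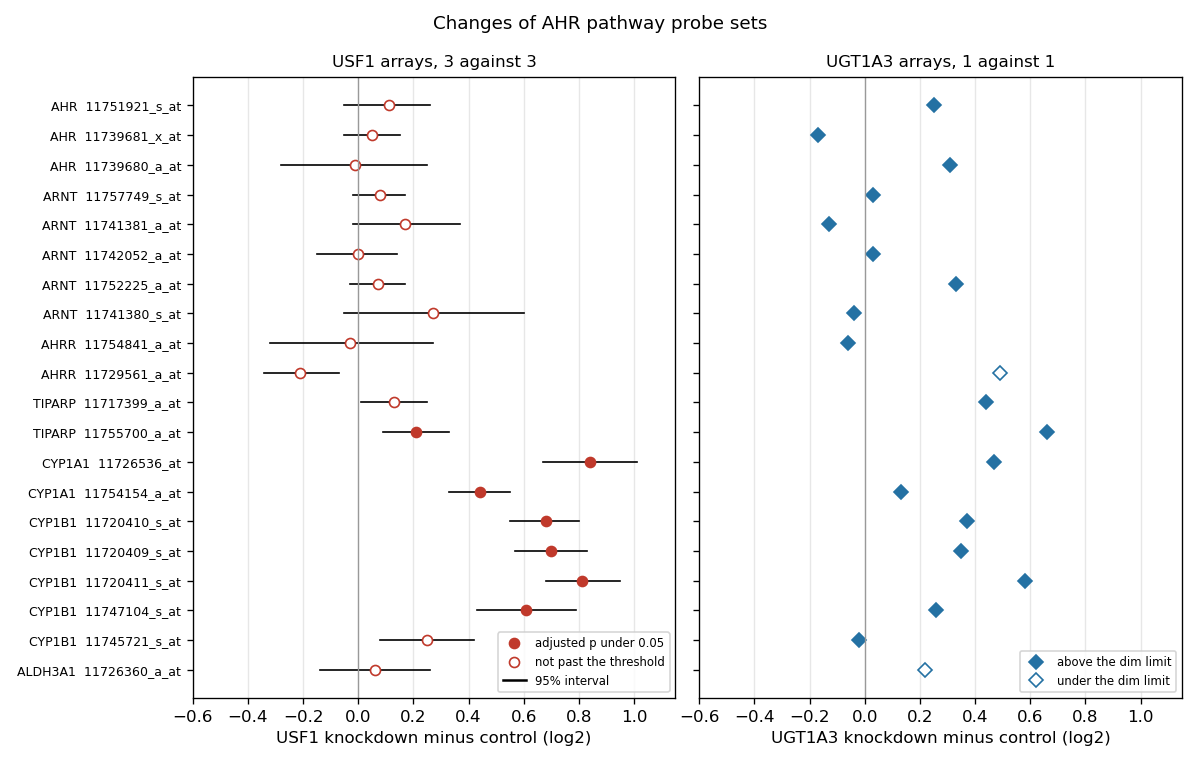
Change of each of the 20 probe sets on the log2 scale, on the left for USF1 knockdown minus control with 95% intervals (limma, 3 against 3 arrays, filled where the adjusted p over all probe sets was under 0.05) and on the right for the UGT1A3 pair (1 against 1, filled above the dim limit). The CYP1A1 probe sets lie at 0.84 and 0.44 on the left and at 0.47 and 0.13 on the right.

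In the UGT1A3 pair, the member genes in order of their difference were TIPARP (0.44), CYP1B1 (0.37), AHR (0.25), CYP1A1 (0.13), ARNT (0.03) and AHRR (-0.06), each on its brightest probe set there. Each group was 1 array, so these differences have no replicate check and no p-value. TIPARP read 9.71 in UGT1A3 knockdown and 9.27 in UGT1A3 control on its brighter probe set, a difference of 0.44, and 7.22 and 6.56 on the dimmer one, a difference of 0.66. Both probe sets pointed the same way, and 11755700_a_at, at 1.57-fold, was the 1 of the 20 member probe sets that was at least 1.5-fold higher. The CYP1B1 probe set 11720411_s_at, at 1.50-fold after rounding, lay just short of that cut. The share of all probe sets that were 1.5-fold higher is not given. By gene, none of 6 members reached 1.5-fold, where 2.15% of 11620 kept genes were that much higher and 1.41% that much lower.

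The CYP1B1 probe set 11720410_s_at read 7.81 in UGT1A3 knockdown and 7.44 in UGT1A3 control, a difference of 0.37. Its other probe sets gave 0.35, 0.58, 0.26 and -0.02, the last on the dimmest one, at 4.87 in UGT1A3 knockdown and 4.89 in UGT1A3 control. CYP1A1 read 5.75 in UGT1A3 knockdown and 5.28 in UGT1A3 control on 11726536_at, a difference of 0.47. On 11754154_a_at it read 5.73 in UGT1A3 knockdown and 5.60 in UGT1A3 control, a difference of 0.13, and this set stood for the gene here since its mean was the higher. The spread of this comparison is not known, and the middle size of a difference over all kept genes was 0.16, with 5% of genes beyond 0.53.

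AHR read 7.0 in UGT1A3 knockdown and 6.75 in UGT1A3 control on its brightest probe set (0.25), and its other two differed by -0.17 and 0.31. The 3 AHR probe sets therefore disagreed in sign. ARNT differed by 0.03 on its brightest probe set and by -0.13 to 0.33 over all 5. AHRR differed by -0.06 on its brighter probe set and by 0.49 on the dim one, at 4.80 in UGT1A3 knockdown and 4.31 in UGT1A3 control, and ALDH3A1 was dim at 3.68 in UGT1A3 knockdown and 3.46 in UGT1A3 control. Over the 18 member probe sets above the dim limit, 13 were higher in UGT1A3 knockdown, where 51.5% of all such probe sets were. Set beside the USF1 arrays, the probe sets that stood for CYP1A1, CYP1B1 and TIPARP in the USF1 fit changed by 0.84, 0.68 and 0.13 after USF1 knockdown, and the same probe sets differed by 0.47, 0.37 and 0.44 in the UGT1A3 pair. For CYP1A1 the other probe set, the brighter one in the UGT1A3 pair, gave 0.44 after USF1 knockdown and 0.13 in that pair. Whether these sizes differ was not tested, since the UGT1A3 groups hold 1 array each.

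**Figure D3:**
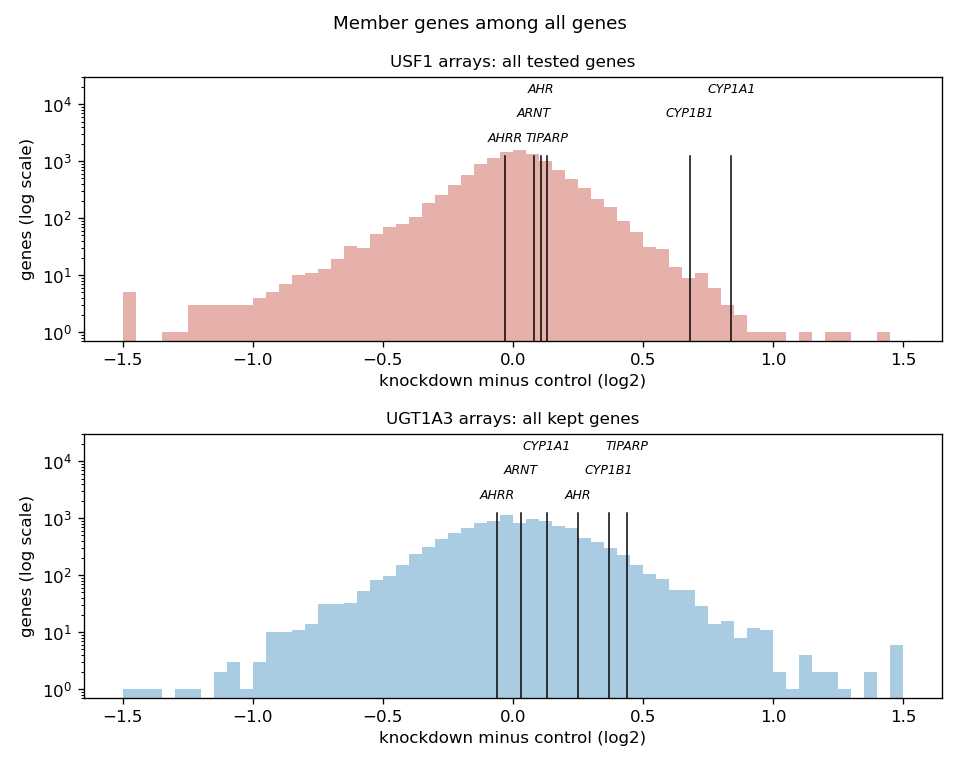
Histograms of the change of all tested genes after USF1 knockdown (above) and of the difference of all kept genes in the UGT1A3 pair (below), with counts on a log axis, the outermost bars holding all genes beyond 1.5 units and lines marking the 6 member genes. CYP1A1 and CYP1B1 lie in the right tail of the USF1 arrays, and TIPARP, at 0.44, lies furthest right of the members in the UGT1A3 pair.

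Beyond the 7 members, 38 other genes of the pathway were counted in 5 lists, of which 35 had a probe set here and 20 were bright enough to be tested after USF1 knockdown. Of these 20, 3 rose, 2 fell and 15 did not pass, with a median change of -0.02, where 40.7% of all tested genes passed. Among 7 tested partners of the receptor 1 rose, the coactivator NCOA1, which read 8.56, 8.70 and 8.58 in USF1 knockdown and 8.21, 8.36 and 8.35 in USF1 control (0.31, SE 0.06, limma adjusted p = 0.00516). The chaperones HSP90AA1 and HSP90AB1 and the co-chaperone PTGES3, which hold the receptor in the cytoplasm, differed by -0.08, -0.05 and -0.02. None of them passed (limma adjusted p = 0.0756, 0.194 and 0.544). For HSP90AA1 and HSP90AB1 the knockdown arrays lay wholly below the controls, as on 2817 of 11448 tested genes. The other bright HSP90AA1 probe set differed by -0.20. The coactivator NCOA2 differed by 0.17 (adjusted p = 0.145), and passed with the mean of its probe sets (0.12, adjusted p = 0.0272) and with a replicate block (0.17, adjusted p = 0.0475). RELB, which can pair with AHR, differed by 0.09 and did not pass.

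None of 5 tested PAS factors that share ARNT with the receptor passed in the main fit, where 40.7% of all tested genes did. HIF1A, the oxygen-sensitive subunit, differed by 0.10 on its brightest probe set (adjusted p = 0.0871). Its 8 bright probe sets ran from 0.10 to 0.30, and with the mean of all of its probe sets HIF1A rose by 0.23 (adjusted p = 4.25e-04). NPAS1 differed by -0.08.

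Other genes known as AHR targets did not move together. NQO1, a quinone reductase shared with NRF2, read 12.23, 12.17 and 12.14 in USF1 knockdown and 11.92, 11.92 and 11.96 in USF1 control. Its groups did not overlap, and it rose by 0.24 (SE 0.03, limma adjusted p = 0.00158). SLC7A5, an amino acid transporter that is a target of both AHR and ATF4, read 8.86, 8.79 and 8.74 in USF1 knockdown and 9.93, 9.83 and 9.82 in USF1 control. It fell by 1.07 (SE 0.05, adjusted p = 3.31e-05), and by 0.75 with the mean of its probe sets. It was also the 1 gene of the 5 lists at least 1.5-fold apart in the UGT1A3 pair, at 7.47 in UGT1A3 knockdown and 8.08 in UGT1A3 control. NFE2L2, which encodes NRF2, fell by 0.12 (adjusted p = 0.0304), a call lost without any 1 of USF1 knockdown 1 (adjusted p = 0.0841), 2 (0.0649) or 3 (0.053) or of USF1 control 1 (0.081) or 2 (0.0647). Its call was also lost with a replicate block (adjusted p = 0.0619), with no dim limit (0.0825) and with the mean of its probe sets (-0.04, 0.252), and its bright probe sets ran from -0.12 to 0.05. CYP1A2, the liver member of the CYP1 family, differed by 0.02 (adjusted p = 0.896), and 6 of the 10 target genes with a probe set were dim.

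Of the genes that make kynurenine and indole ligands, 6 of 7 were under the dim limit, among them TDO2 and IDO1, and AFMID differed by 0.03. Among electron donors of microsomal P450 enzymes, the reductase POR, on which CYP1A1 and CYP1B1 depend, differed by -0.06 (adjusted p = 0.171) and the cytochrome CYB5A by 0.01. CYB5R3, the reductase of that cytochrome, rose by 0.16 (SE 0.03, limma adjusted p = 0.00538) but read 8.57 in UGT1A3 knockdown and 9.06 in UGT1A3 control.

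**Figure D4:**
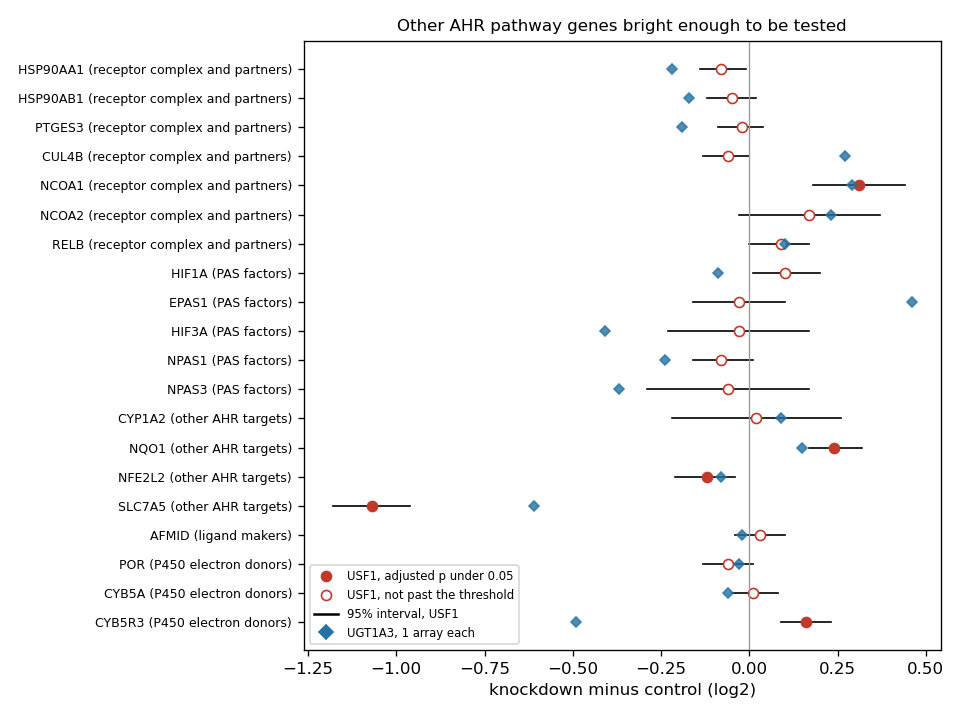
Change of the 20 other pathway genes bright enough to be tested, on the log2 scale, with circles and 95% intervals for USF1 knockdown minus control (filled where the adjusted p over genes was under 0.05) and diamonds for the UGT1A3 pair. SLC7A5 at -1.07 lies apart from the other genes.

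The genes whose brightest probe set followed that of CYP1A1 most closely over the 6 USF1 arrays were TM2D2, CBR3, EXOSC4, LTA4H and ZNF114, with Pearson's r from 0.9982 to 0.9990. For CYP1B1 they were IGF2BP1, USP47, IGFBP6, ID1 and HIVEP2, with r from 0.9982 to 0.9999. These 10 genes rose by 0.14 to 0.72 after USF1 knockdown. That they rose follows from how they were picked, by likeness to CYP1A1 or CYP1B1 on the same arrays. The likeness mostly shows the split between the groups: 152 tested genes had an r above 0.99 with CYP1A1 and 184 with CYP1B1. CYP1A1 and CYP1B1 correlated with each other at 0.985, where CYP1B1 ranked 299th among the genes nearest to CYP1A1, and CYP1A1 353rd among those nearest to CYP1B1.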

How the data were processed

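RNA of 8 H1299 samples was measured on 1-colour Affymetrix arrays. A single table was deposited, with a log2 intensity for every probe set, the log base being inferred from the value range. The submitters' processing notes name MAS5 without role or version, and the scaling between arrays is not stated there. Of 49395 probe sets 102 were controls and left out. Names came from the platform annotation, updated by Entrez number, with 44988 probe sets carrying 1 symbol.

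Groups followed the labels. limma 3.58.1 in R 4.3.3 (lmFit, then eBayes) was run on the USF1 arrays with no replicate term, once over 11448 genes and once over all 49293 probe sets. A gene stood on its probe set of highest mean, and genes dimmer than the 40th percentile over all probe sets were not tested. P-values were two-sided and corrected by Benjamini-Hochberg across all genes, or all probe sets, at a threshold of 0.05. The fit was checked on simulated data with known changes. Of 50 genes changed at each size, 8 were called at 1.1-fold, 40 at 1.25-fold and 49 at 1.5-fold. Of 154 genes called in all, 8 were false. Far fewer genes were changed there than passed in the data, so these shares need not hold for the data. The UGT1A3 pair gave differences only. The number of arrays limits the precision.

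The members and lists were chosen with earlier results of these data known. All probe sets of the members are named, and of the other lists the genes that passed, up to 2 of those tested that did not, those 1.5-fold apart in the UGT1A3 pair, and the 5 genes most like CYP1A1 and CYP1B1. The chaperones HSP90AA1, HSP90AB1 and PTGES3, and the dim TDO2 and IDO1, were named beyond that rule after their values were seen. Alternatives were quantile normalization, centring on medians, other dim limits, adding 16 intensity units, averaging a gene's probe sets, an intensity trend with a robust prior, a replicate block and leaving out each array.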

Additional observations from a re-analysis of the deposited data

Results flagged for a closer look

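On 2 probe sets the change on the USF1 arrays and the difference in the UGT1A3 pair had opposite signs, with all 3 USF1 knockdown arrays on one side of their controls. The AHRR probe set 11729561_a_at differed by -0.21 after USF1 knockdown and by 0.49 in the UGT1A3 pair. The CYP1B1 probe set 11745721_s_at differed by 0.25 after USF1 knockdown and by -0.02 in the UGT1A3 pair. The latter is far under the middle size of a difference in that pair, 0.16, so it shows no clear direction. The knockdowns target different genes and the UGT1A3 groups hold 1 array each, so the difference between them was not tested. Both probe sets were dim (below 5.63) on the USF1 arrays, and the CYP1B1 one was above the dim limit in the UGT1A3 pair.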

How the results depend on the processing

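The rises of CYP1A1 (0.64 to 0.91) and CYP1B1 (0.61 to 0.71) stayed past the threshold under every alternative that gave a value. The number of member genes past the threshold was 2 of 6, where 40.7% of all genes passed, and 4 of 5 with the mean of all probe sets, where 44.2% did and ARNT and TIPARP joined. It was 3 of 6 with quantile normalization (42.6% of all genes), median centring (41.8%), 16 units added (41.6%), an intensity trend and robust prior (46.9%), a replicate block (37.0%) and without USF1 knockdown 3 (38.2%). The number of other pathway genes past it was 5 of 20, and 8 of 20 with an intensity trend and robust prior (46.9% of all genes), 7 of 15 at the 60th percentile (55.0%), 7 of 18 with the mean of all probe sets (44.2%), 6 of 20 with quantile normalization, 4 of 35 with no dim limit (20.1%) and 4 to 5 of 20 on leaving out an array (31.8% to 38.2%). With 16 intensity units added, 0 member probe sets were 1.5-fold higher in the UGT1A3 pair, against 1. The sign of differences that never passed turned on leaving out an array: over the 6 such fits the range was -0.16 to 0.06 for AHRR and for its probe set 11754841_a_at, -0.10 to 0.09 for CYP1A2 (-0.01 with the mean of all probe sets), -0.10 to 0.12 for AHR 11739680_a_at, -0.05 to 0.04 for ARNT 11742052_a_at and -0.03 to 0.11 for ALDH3A1. Replicate numbers alone do not show pairing, so they were not taken as pairs. Deviations of same-numbered USF1 knockdown and control arrays correlated at -0.10, 0.20 and 0.09. Deviations from the mean of only 3 arrays depend on each other, so these values do not decide whether the arrays were paired. With a replicate block TIPARP (0.13, adjusted p = 0.0495) was the member gene that joined. In that fit 6 of the 20 member probe sets passed, against 7 in the main fit. The share of all probe sets that passed with the block is not given, so the drop cannot be set against a background. TIPARP as a gene also passed with quantile normalization, median centring, 16 units added, a dim limit at the 60th percentile, an intensity trend, the mean of all probe sets and without USF1 knockdown 3, in 8 of 14 alternatives in all. The cause of these shifts was not tested. Dim probe sets limit what can be said of ALDH3A1 and AHRR.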

Other observations

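In the UGT1A3 pair, 223 of the 11620 kept genes had exactly the same value on both arrays. None of the member genes was among these 223. On the USF1 arrays, 99 tested genes had the same value on a knockdown and a control array. The cause of such ties was not tested.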
